A study of Drosophila melanogaster with 36 samples.

Results

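Fatty acyl-CoA reductases are enzymes that turn activated fatty acids into fatty alcohols, using NADPH. The 8 genes described here were chosen by name as predicted members of this enzyme family: CG17562, CG17560, CG1441, CG1443 (now wat, for waterproof), CG5065, CG8306, CG30427 and CG4020. All 8 were found on the array, on 10 probe sets, against 11982 named genes in the whole series. Each gene is given by its brightest probe set, and all 8 of those were bright enough to be tested, so no gene was lost to the filter on low values. The genes were put together to set strongly cycling members beside flat ones, so how strongly each one cycled was known when they were chosen and is given as a description.

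Fatty alcohols are built into wax esters and ether lipids, and in insects into pheromones and the lipids that waterproof the cuticle. Insects carry many reductase genes, often with narrow patterns of tissue use. The fly fat body, an organ with the roles of liver and adipose tissue, stores and releases lipid, while oenocytes beside it make the hydrocarbons of the cuticle. In the embryo, wat is needed for the tracheal tubes to fill with gas.

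The arrays measured RNA of abdominal fat bodies of adult males, 10 fat bodies pooled for each array, after the flies had lived for 5 days at 25 °C under lights on for 12 h and off for 12 h. The WT flies carried UAS-dnClk over a plain chromosome in a white background (w; UAS-dnClk/+) with no driver named, and gave 24 arrays, 1 every 2 h from ZT 0 to ZT 46, where ZT counts hours from the first lights-on. The dnClk flies, named after a dominant-negative version of the clock activator Clock, gave 12 arrays, 1 every 4 h from ZT 0 to ZT 44, and the sources used here do not give the driver of their transgene. No time was sampled more than once, so the arrays of a course stand as replicates around a fitted 24 h curve, and the p-values measure only the spread of these arrays, part of which may be technical.

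The genotypes also differed in measures that touch the results below. Bacterial hybridisation controls averaged 11.54 to 12.67 log2 units on the WT arrays and 9.87 to 10.61 on the dnClk arrays, with no overlap, so array handling and genotype cannot be told apart. Of 6 tested fat body markers 5 were lower in dnClk and 1, Yp1, was higher by 0.85 log2 units, at a WT mean of 5.93. The mean of the 6 ran from 9.40 to 10.43 log2 units in WT and from 8.48 to 8.85 in dnClk. Of 5 haemocyte markers 4 were higher and 1, srp, was lower, at -0.48 log2 units. The mean of these 5 ran from 6.51 to 7.37 in WT and from 8.06 to 8.62 in dnClk. With scaling to the hybridisation controls 4 of the fat body markers and all 5 haemocyte markers were higher. Testis markers, 18 in all, ran from a mean of 5.17 to 10.13 across the WT arrays and from 6.97 to 9.37 across the dnClk arrays. Of 9 accessory gland and ejaculatory tract markers 7 were higher in dnClk and 0 were lower (EbpII by 2.54 log2 units and Ebp by 2.11, both ejaculatory bulb genes), and their mean ran from 6.22 to 8.52 in WT and from 7.19 to 8.61 in dnClk. With quantile normalization 5 of the 9 were higher and 1 was lower, and with arrays centred on their median 3 were higher and 2 were lower. In pooled tissue, fewer cells of a type and less RNA per cell cannot be told apart.

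CG17562 was the most strongly cycling of the 8 genes in WT. Its intensity ran from 266.4 at ZT 18 to 2264.8 at ZT 26, with a median of 1197.5. On the first day it stayed between 1478.4 and 2101.4 from ZT 0 to ZT 10, fell to 516.8 at ZT 12, when the lights went off, and was back at 1153.2 by ZT 22, before the lights came on. On the second day the fall was spread over more samples, from 1802.5 at ZT 30 through 1241.8 and 721.5 to 404.2 at ZT 36 and 269.7 at ZT 38. It stayed at or below 524.7 until ZT 44 and reached 1524.2 at ZT 46. The transcript was thus high through most of the light phase and low for most of the dark phase on both days, with the rise beginning before dawn.

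The fitted 24 h curve of CG17562 in WT had an amplitude (mean to peak) of 1.40 ± 0.11 log2 units (SE, n = 24), with 6.94-fold between the fitted trough and peak, and its peak time was ZT 3.68 ± 0.29 h. Of the tested probe sets 99.8% had a smaller WT amplitude. Each day fitted alone gave 1.34 ± 0.17 with a peak at ZT 4.29, and 1.49 ± 0.10 with a peak at ZT 3.13.

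CG17560, the gene next to CG17562 on chromosome arm 3R, followed the same course. Its intensity ran from 607.9 at ZT 36 to 3632.5 at ZT 26 in WT, with a median of 2017.3. It stayed between 2619.2 and 3405.5 from ZT 0 to ZT 10, dropped to 798.4 at ZT 12 and was back at 2571.3 at ZT 22. On the second day it went from 2899.5 at ZT 30 to 2091.6, 999.9 and 607.9 in successive samples. Its amplitude was 1.17 ± 0.10 log2 units (SE, n = 24), 5.04-fold from trough to peak, and its peak fell at ZT 3.43 ± 0.34 h. The peak times of the neighbouring genes differed by less than their standard errors. How alike their sequences are was not analysed here, so signal shared between their probe sets cannot be told apart from separate transcripts.

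CG1441 cycled at a smaller amplitude and at another time of day. In WT it ran from 44 at ZT 36 to 235.3 at ZT 44, with a median of 97.25. The arrays late in each night stood highest, 168.6 and 176.9 at ZT 20 and 22 and 235.3 and 205.7 at ZT 44 and 46, and no other WT array exceeded 138.9. The fitted amplitude was 0.54 ± 0.10 log2 units (SE, n = 24), 2.12-fold from trough to peak, with the peak at ZT 22.3 ± 0.71 h. Its probe set is of the kind the array maker marks as matching several transcripts, and the annotation gives it this gene alone.

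The other 5 genes were flatter. CG8306 ran from 101.4 to 293 in WT (median 199.2), and its fitted amplitude was 0.34 ± 0.09 log2 units, peaking at ZT 13.8 ± 0.99 h, so its fitted peak lay early in the night. CG4020 ran from 242.3 to 753.3 (median 406.7), its fitted amplitude was 0.34 ± 0.11 and its peak fell at ZT 10.96 ± 1.26 h. Its 4 lowest arrays, at ZT 24, 44, 46 and 2, all lay within 4 h of lights-on. CG5065, wat and CG30427 had amplitudes of 0.12 ± 0.14, 0.06 ± 0.09 and 0.05 ± 0.10, each smaller than its standard error. The median WT amplitude was 0.340 over the 8 genes and 0.133 over all tested probe sets.

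By limma's moderated F, CG17562, CG17560 and CG1441 were past the threshold for a WT rhythm (adjusted p under 0.05), a share of 3 of 8, where 0.648% of all 11261 tested probe sets were. Since the genes were chosen with their cycling known, nothing is read from that share. CG1441 was the last of the 8 genes inside the threshold (adjusted p = 0.0172 by limma), and CG8306 was the next in order, outside it (adjusted p = 0.185). CG1441 did not pass without the WT array at ZT 22 (adjusted p = 0.0569) or at ZT 46 (adjusted p = 0.0525), with quantile normalization (adjusted p = 0.265), with arrays centred on their median (adjusted p = 0.569) or at the 12 shared times (adjusted p = 0.581), while CG8306 passed without the WT array at ZT 36 (adjusted p = 0.00758), where 1.74% of all probe sets passed.

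**Figure D1:**
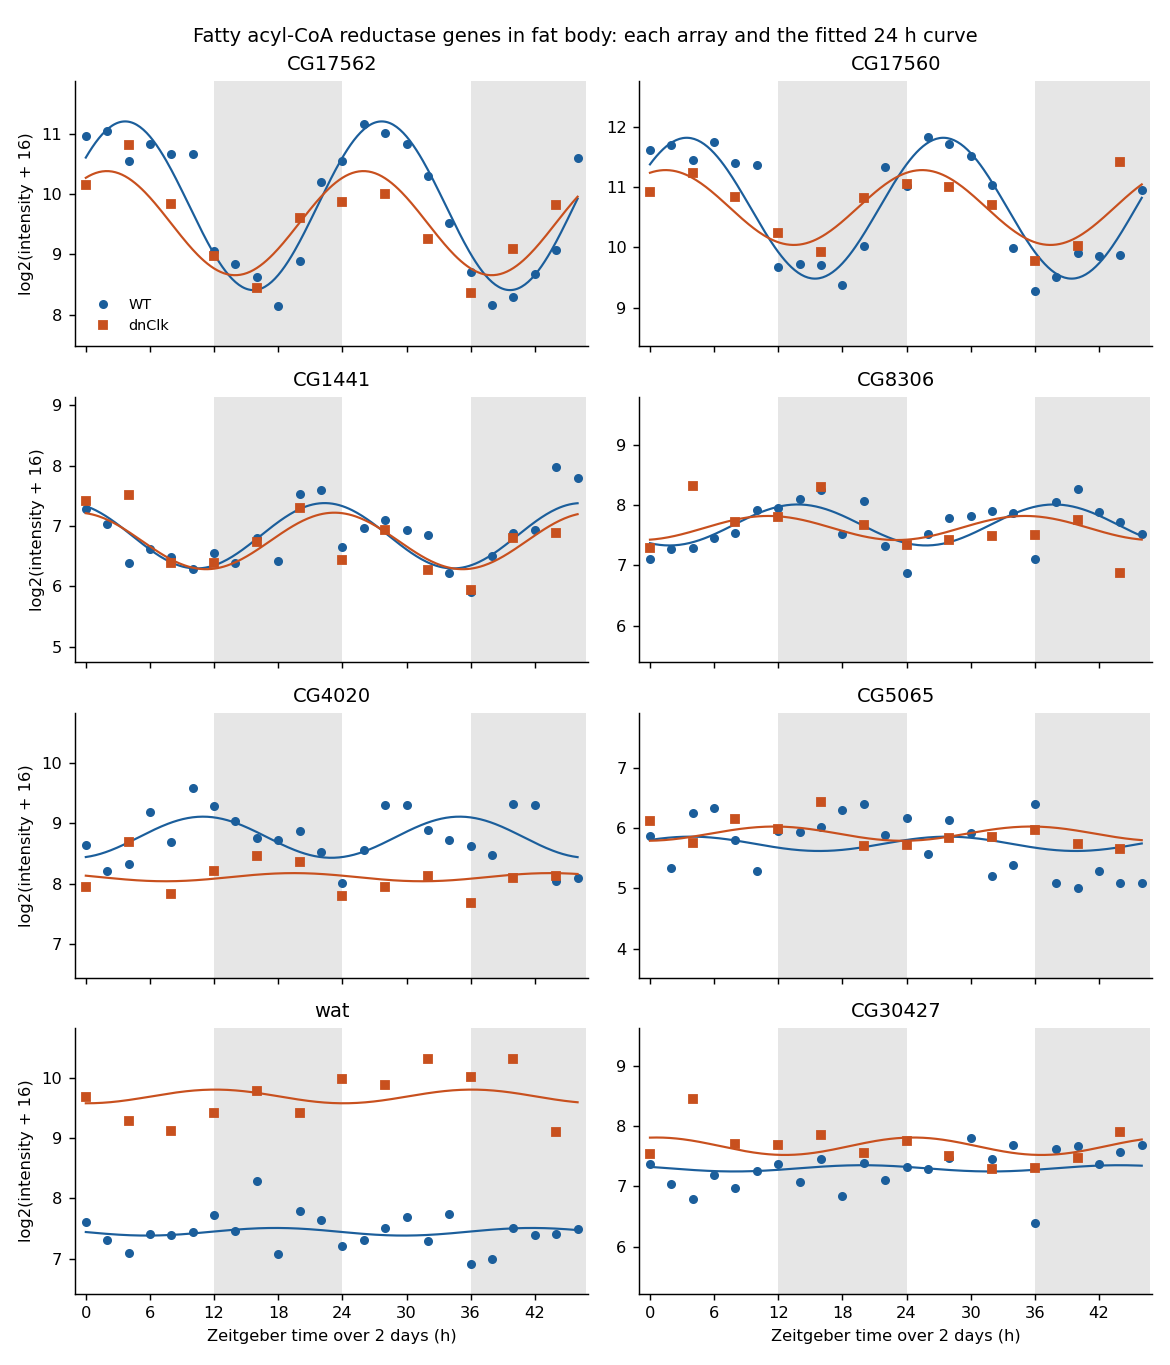
Points give log2(intensity + 16) on each array against zeitgeber time over 2 days for the 8 reductase genes, circles for WT (n = 24) and squares for dnClk (n = 12), lines are the fitted 24 h curves, and grey marks darkness; every panel spans the same number of log2 units. CG17562 and CG17560 swing by 6.94-fold and 5.04-fold in WT with peaks at ZT 3.68 and 3.43, and wat in dnClk lies above every WT array.

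Testis signal in the WT course also had a daily component. A 24 h curve through the mean of the 18 testis markers had an amplitude of 0.936 log2 units and a peak at ZT 3.69 in WT, although none of those markers was past the threshold for a WT rhythm. With the testis mean and the accessory gland mean as covariates, the WT amplitude of CG17562 was 1.47 ± 0.11 and that of CG17560 was 1.22 ± 0.11. Without them these were 1.40 ± 0.11 and 1.17 ± 0.10. The part of testis or other tissue RNA in these rhythms was not tested.

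Some of the 8 genes moved with the testis markers from array to array. This comparison was added after the values had been seen. Per log2 unit of the testis mean, CG5065 changed by 0.20 ± 0.04 log2 units (limma adjusted p = 0.000179), and it was the only one of the 8 genes to rise with it, beside 18.8% of all tested probe sets. CG30427 changed by -0.15 ± 0.04 (limma adjusted p = 0.00102), CG1441 by -0.11 ± 0.04 (limma adjusted p = 0.0256) and CG8306 by -0.11 ± 0.04 (limma adjusted p = 0.0234), 3 of 8 genes falling where 29.9% of all probe sets fell. These shares are near those of the array as a whole.

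In dnClk, the same genes led the order of amplitudes. CG17562 ran from 312.1 at ZT 36 to 1778.3 at ZT 4, with a median of 824.5. It was lowest at ZT 16 on the first day (332.3) and at ZT 36 on the second, and its fitted amplitude was 0.86 ± 0.14 log2 units (SE, n = 12), 3.31-fold from trough to peak. CG17560 ran from 856 at ZT 36 to 2727.8 at ZT 44, with a median of 1799.65 and an amplitude of 0.62 ± 0.12, 2.36-fold. CG1441 ran from 45 at ZT 36 to 167 at ZT 4, with a median of 93.45. Its dnClk amplitude was 0.47 ± 0.15, peaking at ZT 23.3 ± 1.19 h. The other 5 amplitudes lay between 0.068 and 0.200, and the median over all tested probe sets was 0.118.

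By limma's moderated F none of the 8 genes was past the threshold in dnClk, where 0.0355% of all tested probe sets were (4 of 11261). At an unadjusted p under 0.05, the dnClk curves of CG17562, CG17560 and CG1441 would pass, among 194 of all 11261 tested probe sets. Their adjusted p was 0.250, 0.669 and 0.864 by limma. These genes were chosen with their cycling known, so nothing is read from that count. The dnClk course has fewer arrays than the WT course. At the 12 times that both courses share, the WT amplitude was 1.34 ± 0.13 for CG17562 and 1.12 ± 0.14 for CG17560, both past the threshold among 10 probe sets in all.

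Since CG17562 and CG17560 were chosen with their strong WT cycling known, a lower dnClk amplitude is given as a description only. The fitted dnClk amplitude of CG17562 minus that in WT was -0.54 log2 units (95% interval -0.88 to -0.19). For CG17560 the difference was -0.55 (-0.86 to -0.23). For CG1441 it was -0.07 (-0.42 to 0.27), an interval that includes 0, and for CG4020 it was -0.27 (-0.60 to 0.05). The fitted dnClk peaks came at ZT 1.96 ± 0.62 h for CG17562 and ZT 1.46 ± 0.75 h for CG17560, earlier than in WT by 1.71 ± 0.68 h and 1.98 ± 0.83 h. The dnClk peaks also moved between the days when each day (n = 6) was fitted alone. CG17562 went from ZT 2.99 ± 0.47 h to ZT 0.51 ± 0.66 h, and CG17560 from ZT 2.73 ± 0.80 h to ZT 0.42 ± 0.96 h.

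The differences in amplitude depended on the scaling of the arrays. They were -0.23 ± 0.20 for CG17562 and -0.23 ± 0.18 for CG17560 with quantile normalization, and -0.32 ± 0.21 and -0.33 ± 0.18 with arrays centred on their median. The limma test of a difference in rhythm called none of the 8 genes and 0% of all probe sets (0 of 11261), and 179 probe sets had an unadjusted p under 0.05, CG17562 (p = 0.00174) and CG17560 (p = 0.00138) among them, with adjusted p = 0.977 for both by limma. A difference in rhythm between the genotypes is therefore not shown by this test for any of these genes.

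**Figure D2:**
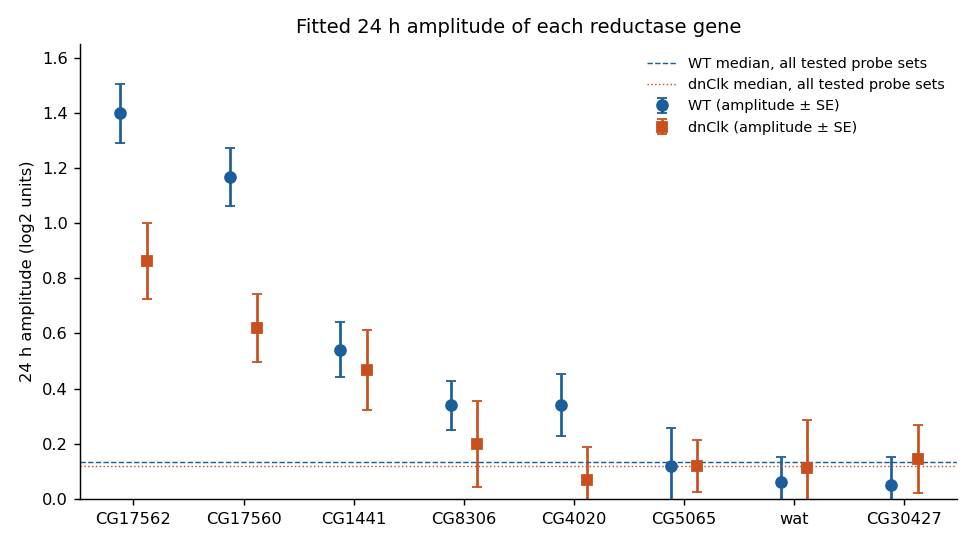
Fitted 24 h amplitude in log2 units with its SE for each reductase gene, circles for WT (n = 24 arrays) and squares for dnClk (n = 12 arrays), beside the medians over all tested probe sets. CG17562 lies at 1.40 in WT and 0.86 in dnClk, CG17560 at 1.17 and 0.62, and CG5065, wat and CG30427 lie near or below the medians of 0.133 and 0.118.

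The level of a gene over the whole course was not used to choose the genes and was tested. In dnClk 2 of the 8 genes were higher, wat and CG30427, and 1 was lower, CG4020, while over all tested probe sets 39.3% were higher and 17.7% were lower (limma adjusted p under 0.05). The shares of the 8 genes, few as they are, are not set apart from that background. The median difference was -0.02 log2 units over the 8 genes and 0.25 over all tested probe sets.

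wat showed the largest shift of the 8. In WT it ran from 105 at ZT 36 to 298 at ZT 16, with a median of 156.6, and in dnClk from 533.6 at ZT 44 to 1259.6 at ZT 32, with a median of 834.95. Every dnClk array lay above every WT array, as was the case for 6.3% of all tested probe sets. The mean difference was 2.24 ± 0.13 log2 units, 4.73-fold (limma adjusted p = 1.1e-16, n = 24 and 12), and it lay between 1.85 and 4.21 under every scaling, filter and covariate tried. Of 3 tested tracheal markers, 1 was higher in dnClk (serp, a chitin deacetylase, by 0.50 log2 units) and 2 were not past the threshold. With quantile normalization or arrays centred on their median none of the 3 was past it as higher, serp being at 0.23 and 0.11, and with scaling to the hybridisation controls all 3 were higher. The tracheal mean ran from 6.42 to 7.26 in WT and from 6.88 to 7.55 in dnClk. The haemocyte means given above did not overlap either, and the part of tracheal or haemocyte RNA in the level of wat was not tested.

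CG4020 was lower in dnClk. It ran from 242.3 to 753.3 in WT (median 406.7) and from 190.3 to 398.3 in dnClk (median 260.45), so the courses overlapped. The difference was -0.66 ± 0.13 log2 units, 1.58-fold lower (limma adjusted p = 5.86e-05), and it lay between -1.05 and -0.58 under the other settings except with arrays scaled to the hybridisation controls, where it turned to 1.32. The median difference of the 6 fat body markers was -1.39 log2 units, and their part in the level of CG4020 was not tested.

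CG30427 ran from 68 at ZT 36 to 206.6 at ZT 30 in WT, with a median of 149.45, and from 139.9 at ZT 32 to 332.1 at ZT 4 in dnClk, with a median of 180.5. The difference was 0.37 ± 0.12 log2 units, 1.29-fold (limma adjusted p = 0.00884). It was 0.12 (limma adjusted p = 0.534) with quantile normalization and -0.02 (limma adjusted p = 0.938) with arrays centred on their median. Without the 4 arrays richest in the ejaculatory bulb marker EbpII it was 0.25 (limma adjusted p = 0.111), and only wat was then higher.

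For the remaining 5 genes the level difference was not past the threshold as deposited. It was -0.29 ± 0.13 log2 units for CG17562 (limma adjusted p = 0.0578), 0.01 ± 0.12 for CG17560, -0.09 ± 0.13 for CG1441, 0.17 ± 0.15 for CG5065 and -0.05 ± 0.12 for CG8306. CG17560 passed as higher with quantile normalization and as lower with arrays centred on their median. With that centring CG17562, CG1441 and CG8306 passed as lower too, at -0.68, -0.48 and -0.44 log2 units. CG17562 passed as lower when any 1 of 9 arrays was left out (WT at ZT 4, 18, 20, 36 or 38, or dnClk at ZT 4, 8, 40 or 44), with a lowest limma adjusted p of 0.0233 without the dnClk array at ZT 4.

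**Figure D3:**
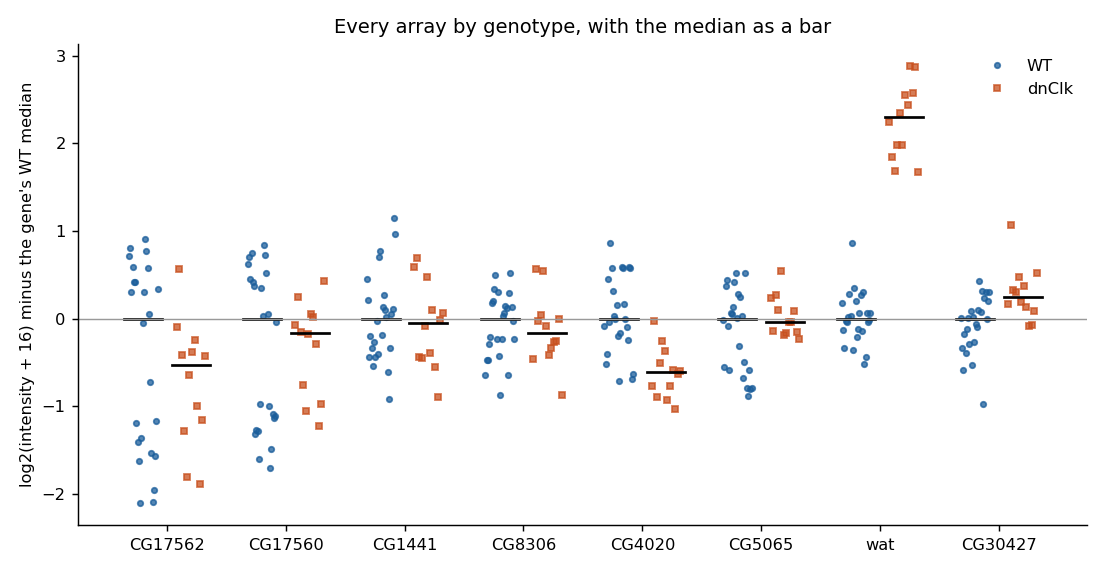
Every array's log2(intensity + 16) minus the same gene's WT median, for WT (circles, n = 24) and dnClk (squares, n = 12), with black bars at the group medians. The 12 dnClk arrays of wat all lie above the 24 WT arrays, those of CG4020 all lie below the WT median, and the other genes overlap widely.

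The scale chosen for the arrays sets several of these directions. The median difference of all tested probe sets was 0.25 as deposited, -0.01 with quantile normalization, -0.14 with arrays centred on their median and 2.01 with scaling to the hybridisation controls. Relative to the deposited median, wat was higher by 1.99 log2 units, CG30427 by 0.11, and CG4020 was lower, at -0.92. With arrays centred on their median 5 genes were lower and 1, wat, was higher, beside 33.9% of all probe sets lower and 11.5% higher. Scaled to the hybridisation controls all 8 genes were higher, as were 11091 of 11261 probe sets.

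**Figure D4:**
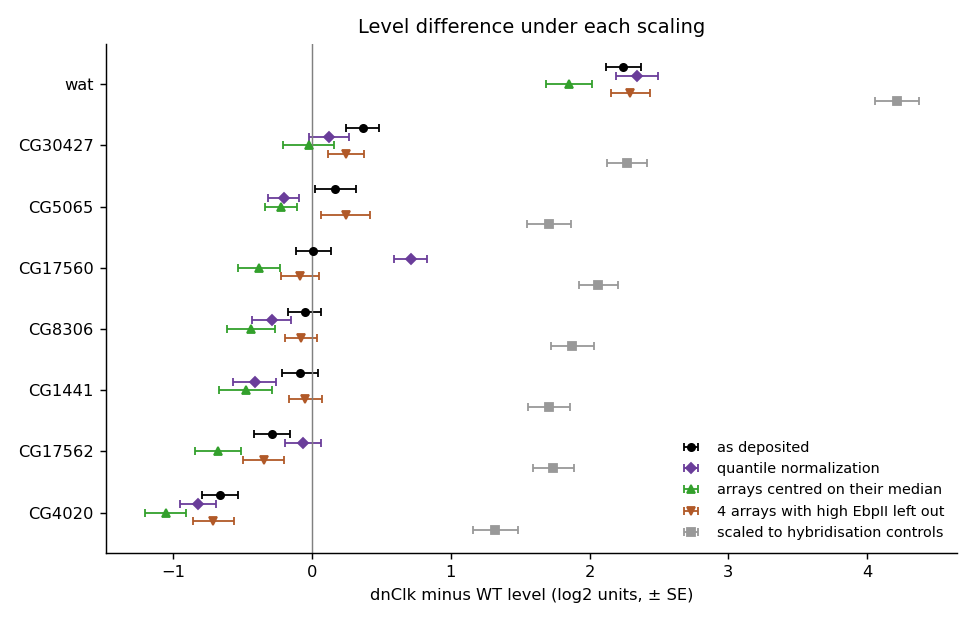
Level difference, dnClk minus WT in log2 units with its SE, for each reductase gene as deposited and under 4 other settings. wat stays between 1.85 and 4.21 throughout, CG4020 is below 0 except under scaling to the hybridisation controls, and CG17560 moves from -0.38 to 2.06.

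The second WT day was compared with the first as a measure that had no part in choosing the genes. None of the 8 genes passed (limma, 2.35% of all tested probe sets did). At an unadjusted p under 0.05 CG5065 and CG30427 would pass, among 2344 of 11261 probe sets, so they are not set apart from that background. CG5065 was at -0.42 ± 0.18 log2 units on the second day against the first (limma adjusted p = 0.182), and its last 5 WT arrays all lay between 16.1 and 23.2, where the 24 arrays had a median of 43. CG30427 was at 0.29 ± 0.13 (limma adjusted p = 0.209). Without the WT array at ZT 36, which had the highest testis mean, both passed, at -0.51 (limma adjusted p = 0.0469) and 0.39 (limma adjusted p = 0.0162). The share of all probe sets past the threshold rose to 9.13% without that array (1028 of 11261).

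The genes whose courses were most like that of CG17562 are given as a description over the 24 WT arrays, which share their libraries, among 8471 other tested genes. CG17560 ranked first, with Pearson r = 0.96 in WT (Spearman rho = 0.93, and r = 0.96 without the 2 arrays farthest from the median) and r = 0.89 over the 12 dnClk arrays. Ugt36D1, a UDP-glycosyltransferase, came next with r = 0.95 in WT and 0.97 in dnClk, and it ran from 86.4 to 712.7 in WT with a peak at ZT 2.94. Its level did not pass the test (0.10 log2 units, limma adjusted p = 0.4995). Abca3, a predicted lipid transporter of the ABC family, had r = 0.85 in WT and 0.11 in dnClk, where its amplitude was 0.046 against 0.73 in WT. CG31205 likewise had r = 0.82 in WT and 0.38 in dnClk.

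Jhbp1, a juvenile hormone binding protein, had r = 0.84 in WT and 0.86 in dnClk. Jhe, juvenile hormone esterase, had r = 0.78 and 0.74, and sxe2, a predicted lipase, 0.77 and 0.91. The other reductases did not share the course of CG17562 in WT. CG1441 had r = 0.19, CG5065, CG30427 and wat lay between -0.001 and 0.056, CG4020 had r = -0.11, and CG8306, with its early night peak, had r = -0.52. Over the 12 dnClk arrays CG1441 had r = 0.68 and CG30427 r = 0.55, both higher than in WT. There CG4020 had r = 0.20, CG8306 -0.13, CG5065 -0.42 and wat -0.44.

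The pair CG17562 and CG17560 sits beside a further predicted reductase, CG14893, which was not among the 8. CG14893 was faint in WT, from 1 to 234.9 with a median of 28.9, and ran from 40.3 to 288.1 in dnClk with a median of 168.9. It was higher in dnClk by 1.71 ± 0.27 log2 units, 3.28-fold (limma adjusted p = 2.26e-06), and by 1.32 to 3.39 under the other scalings. Its fitted WT peak fell at ZT 12.9 with an amplitude of 0.71 ± 0.23 that did not pass (limma adjusted p = 0.393), and the fitted peaks of its neighbours lay in the early light phase. Of the other genes around the pair, CG10340 had a WT amplitude of 0.15 ± 0.09 and Fas1, a cell adhesion gene, 0.39 ± 0.08 with a peak at ZT 21.04, and neither passed (limma adjusted p = 0.734 and 0.0631).

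Other predicted reductases, a list of 7 of which 5 were tested, went different ways. Sgp ran from 2007 to 7450.8 in WT (median 4964.35) and from 571.2 to 2941 in dnClk (median 1981.75), and was lower in dnClk, at -1.43 ± 0.13 log2 units (limma adjusted p = 3.11e-11). It was at -0.45 with quantile normalization and at 0.63 with scaling to the hybridisation controls. In WT it cycled with an amplitude of 0.45 ± 0.09 (limma adjusted p = 0.0294), highest near ZT 0.25. FarO, the reductase that acts in oenocytes, was at -0.18 ± 0.12, CG12268 at 0.24 ± 0.13 and CG34342 at 0.12 ± 0.15, none past the threshold as deposited.

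Enzymes that make the substrates of the reductases were mostly lower in dnClk as deposited. Of 8 genes of fatty acid synthesis, 7 were lower and 0 were higher, with a median of -1.0 log2 units, where 17.7% of all tested probe sets were lower. The largest differences were at FASN1 (fatty acid synthase, -1.65), Men (malic enzyme, which makes NADPH, -1.65) and ACC (acetyl-CoA carboxylase, -1.45). With arrays centred on their median 7 were again lower and 0 higher, beside 33.9% of all probe sets lower. However, 8 of 8 were higher with scaling to the hybridisation controls, and 4 were lower and 2 higher with quantile normalization. None of the 8 passed for a WT rhythm, and their largest amplitudes were 0.28 for Men and 0.22 for FASN2. All 4 further enzymes of chain elongation were lower, Hacd1 by the most (-1.02) before spidey (-0.56) and Sc2 (-0.56). All 4 were lower with arrays centred on their median too, while the same 4 were higher with scaling to the hybridisation controls. With quantile normalization 1 was higher and 2 were lower. The largest WT amplitudes among them were 0.19 for spidey and 0.14 for Sc2.

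Elongases were split, 4 higher and 7 lower of 15, with CG9459 at -1.30, CG9458 at -1.30 and CG18609 at -1.20. CG18609 and CG9459 passed for a WT rhythm, with amplitudes of 1.01 and 0.53 and peaks at ZT 19.9 and 19.3, at night and away from the peaks of CG17562 and CG17560. CG31141 had an amplitude of 0.91 that did not pass (limma adjusted p = 0.630). Of 6 desaturases 3 were higher and 2 lower, ifc (1.42) and CG9743 (1.36) against Desat1 (-1.20), while with quantile normalization 2 were higher and 0 were lower, with Desat1 at -0.057 (limma adjusted p = 0.368). All 15 elongases and all 6 desaturases were higher with scaling to the hybridisation controls, and with arrays centred on their median 1 elongase was higher and 9 were lower.

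Of 2 genes of hydrocarbon synthesis, Cyp4g1, the oenocyte enzyme that makes hydrocarbons from aldehydes, was lower (-1.33) and Cyp4g15 was at -0.23 without passing. Gnpat, an early enzyme of ether lipid synthesis, was higher (0.38, but -0.015 with arrays centred on their median), as was CG1941, an acyltransferase of the DGAT2 family (1.26), each the 1 tested gene of its list. Peroxisome biogenesis genes had 2 higher and 4 lower of 8, Pex14 (1.08) being the largest difference before Pex5 (-0.59) and Pex2 (-0.47). The 5 tested oenocyte markers, FASN2, FASN3, spidey, CG18609 and Cyp4g1, which also stand in the lists above, were all lower as deposited, and their mean ran from 11.53 to 12.43 log2 units in WT and from 10.63 to 11.39 in dnClk. With scaling to the hybridisation controls all 8 peroxisome genes, both hydrocarbon genes and all 5 oenocyte markers were higher, and with quantile normalization 2 oenocyte markers were higher and 1 was lower. The part of oenocyte RNA in the levels of the reductases was not tested.

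CG30427 had 2 further probe sets, both below the filter. The second was at or below 29.6 on 32 of the 36 arrays and stood far higher on 4, at 167.2 in WT at ZT 24 and at 329.8, 78.5 and 233.1 in dnClk at ZT 4, 24 and 44. Those were also the 4 arrays with EbpII, an ejaculatory bulb protein, above 2000. EbpII stood at 5448.5 in WT and at 2703.9, 2426.7 and 3401 in dnClk there, and at no more than 341.3 on the other WT arrays and 1055.5 on the other dnClk arrays. The ejaculatory bulb of the male makes lipid pheromone. On the same arrays the elongase CG5326 stood at 311.1, 425.7, 333 and 441.9 and did not exceed 49.9 elsewhere, and the reductase CG12268 stood at 132.9, 183.3, 160 and 128.7 and did not exceed 98.5. These genes were set side by side after their values had been seen, and no test was made.

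The reported CG30427 probe set was at 143.2, 332.1, 198.2 and 222.5 on those 4 arrays, and the values at ZT 4 and ZT 44 in dnClk were the highest of the 36. The remaining probe set, of the kind that matches several transcripts, stayed between 0.7 and 21 on all arrays. Its level difference was 0.26 ± 0.08 log2 units when all probe sets were tested (limma adjusted p = 0.00647), at intensities below the filter. In that fit the median difference over all 18769 probe sets was 0.21, and 38.5% of them were higher in dnClk. No other gene of the 8 lost or gained a call in the level comparison without the 4 arrays.

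**Figure D5:**
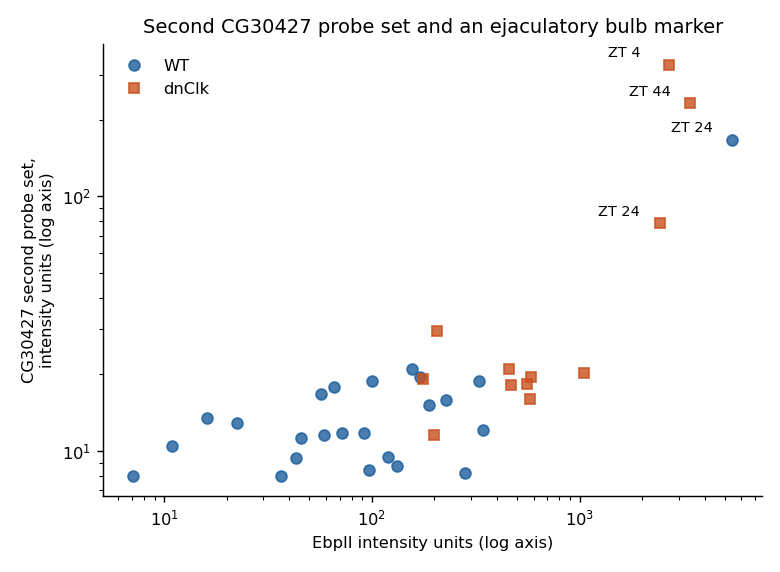
Intensity of the second CG30427 probe set against that of EbpII on each of 36 arrays (both axes logarithmic), circles for WT and squares for dnClk, with the ZT of the 4 arrays that have EbpII above 2000. Those 4 arrays reach 78.5 to 329.8 on the CG30427 probe set, and the other 32 arrays stay at or below 29.6.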

How the data were processed

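The authors deposited 1 intensity per probe set and array, not log-transformed. Per the submitters' processing notes, MAS5 made these intensities (no version stated). Every array had a trimmed mean of 150.0, and this scaling was kept. From these, log2(intensity + 16) was computed, so folds of dim probe sets are understated. Control probe sets (183) were set aside, and the 60% of the other 18769 with the highest mean log2 value were tested (11261, lowest mean 31.3).

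limma 3.58.1 in R 4.3.3 fitted a cosine and a sine of 24 h in each genotype (moderated F), a joint fit of all 36 arrays with a genotype term and with genotype by curve terms, and a day term in WT. Amplitudes and peaks have delta-method standard errors, and intervals are 1.96 standard errors wide on each side. P-values were adjusted by Benjamini-Hochberg over all 11261 probe sets at a threshold of 0.05. Probe sets were named from the platform annotation, with symbols updated through a gene table of assembly Release 6. Coordinates are left out, as no source used here names a genome build.

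The members, lists and tests were chosen with earlier results of these data known. The text names all 8 genes, the tested genes among the 3 nearest on each side of CG17562 and CG17560, the 6 tested genes besides CG17560 that correlate best with CG17562 over the WT arrays, and from each pathway list up to 3 genes with the largest absolute difference and up to 2 with the largest WT amplitude. Genes outside this rule were chosen after their values were seen: CG5326, EbpII, Ebp, FarO, CG34342, serp, Yp1 and srp, as were the testis slopes. Alternatives covered pseudocount, filter, scaling, tissue covariates, shared times, a 12 h term, other probe sets, single days and leaving out each array. The fits recovered known rhythms and level differences on simulated data with independent noise. Those data lacked the tissue and scaling differences that probe sets share on the real arrays, so the p-values were not checked under such differences. Sequences of these genes were not used here. The number of arrays limits the precision.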

Additional observations from a re-analysis of the deposited data

Results flagged for a closer look

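The second CG30427 probe set lies below the filter on low values and enters none of the tests of the reductase genes above. It was set beside EbpII above without a test. Its highest dnClk array reached 329.8 intensity units (ZT 4), above the highest WT array at 167.2 (ZT 24), and 32 of the 36 arrays stayed at or below 29.6. It was listed here because it shows a signal outside the main measurement that is above the level in the control genotype. It had a level difference of 0.80 ± 0.29 log2 units when all probe sets were tested (limma adjusted p = 0.0201), where 38.5% of 18769 probe sets were higher. The 3 highest dnClk arrays, at 329.8, 78.5 and 233.1, are also the dnClk arrays with EbpII above 2000, and the difference without them was not tested. On the arrays without high EbpII it did not exceed 29.6 in dnClk and 21 in WT.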

How the results depend on the processing

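The count of reductase genes higher in dnClk, 2 as reported, was 1 with arrays centred on their median and 1 without the 4 arrays with EbpII above 2000 (an alternative chosen after seeing the data), and 8 with scaling to the hybridisation controls. With quantile normalization it stayed 2, but these were wat and CG17560 in place of wat and CG30427. The count of genes lower, 1 as reported, was 2 with a pseudocount of 64, 2 with quantile normalization, 5 with arrays centred on their median and 0 with scaling to the hybridisation controls, and ranged from 1 to 2 when single arrays were left out. The count passing for a WT day difference ranged from 0 to 2 when single WT arrays were left out, 2 being without the array at ZT 36, while the count over all probe sets (265 as reported) ran from 29 to 1181 in the same runs, was 6 with arrays centred on their median and was 2417 with the tissue covariates. Scaling to the hybridisation controls turned CG17562 to 1.74, CG1441 to 1.71, CG8306 to 1.87 and CG4020 to 1.32 log2 units. Centring arrays on their median turned CG17560 to -0.38 (limma adjusted p = 0.0405) and CG30427 to -0.024, and quantile normalization put CG17560 at 0.71 (limma adjusted p = 7.6e-06). The cause of these shifts was not tested. The genes past the threshold for a WT rhythm numbered 2 to 4, and those past it for a dnClk rhythm or a difference in rhythm numbered 0 in every setting tried. The counts over all probe sets moved as well, from 53 to 196 for a WT rhythm when single arrays were left out and to 2280 higher and 2940 lower in dnClk with quantile normalization and 1291 and 3822 with centred arrays. Replicate numbers only name the arrays of a course and pair none between the courses. With the 12 shared times as a block the level differences of wat, CG30427 and CG4020 passed as before, at 2.21, 0.40 and -0.62. Depth is not known for arrays, and dim probe sets, such as those of CG5065 (16.1 to 69.9), limit what can be seen.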
